A study of Mus musculus with 16 samples.

Results

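Pmepa1, Bambi, Smurf1, Smurf2, Wwp2, Ski, Skil and Tgif1 encode proteins that restrain signalling by transforming growth factor β (TGF-β), and they were followed here through the cell types of the mouse thoracic aorta after Smad3 had been deleted from vascular smooth muscle cells (VSMCs). These 8 genes were taken by symbol from the 31055 features of the deposited matrices. Pmepa1 was chosen by its lower level in Smad3-deficient VSMCs of these same libraries, and Skil, Wwp2 and Bambi are also named in the study of these mice, so the genotype difference in VSMCs, and its size relative to other cell types, is described below without a test for any of the 8. The tests concern other cell types, levels between cell types and VSMCs split by markers of position along the aorta.

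TGF-β binds a pair of receptor kinases at the cell surface, which phosphorylate Smad2 and Smad3. The phosphorylated Smads join Smad4, enter the nucleus and switch genes on or off. Several of the genes switched on encode inhibitors of the same pathway, so that the signal limits itself. In the aortic wall this pathway controls the matrix and contractile genes of VSMCs, and mutations in its receptors, ligands and Smads cause familial aneurysms. The inhibitors act at successive steps. BAMBI resembles a receptor but has no kinase domain. PMEPA1 sits in membranes and keeps receptor-activated Smads from the receptor complex. SMURF1, SMURF2 and WWP2 are ubiquitin ligases that mark receptors or Smads for degradation. SKI, SnoN (the product of Skil) and TGIF1 repress Smad-bound genes in the nucleus.

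The files held UMI (unique molecular identifier) counts, which number captured RNA molecules, from 16 libraries of 1 mouse each. Every mouse was a male of the 129S6/SvEv background that carried the Y-linked Myh11-CreER transgene, a Cre driven by the promoter of smooth muscle myosin, and received tamoxifen from 6 weeks of age. Control mice were Smad3+/+. Those called Smad3SmKO were Smad3 lox/lox, and some mice of both genotypes were labelled as carrying the conditional EGFP-L10a tracer. Aortas from the root to the arch were taken 10 weeks after deletion (2 Smad3+/+ and 2 Smad3SmKO) or 18 weeks after it (5 and 7), times at which the series describes root dilation as undetectable and moderate. Living nucleated cells were sorted before capture, so levels are those of cells that survived digestion. Batch 4 was the whole of the 10-week set, with a digestion of 60 min. The 18-week set came in batches 1, 2 and 3, with a digestion of 30 min, and in batches 5 and 6, with one of 60 min. Smad3SmKO replicates 5 and 7 made up batch 5, which held no Smad3+/+ library. In fits with batch as a covariate they inform the spread, not the fitted genotype difference of 18 weeks. Those fitted differences rest on batches 1, 2, 3 and 6.

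Of 66349 deposited cells, 50858 passed the study's limits on genes, UMIs and mitochondrial share, with 631 to 6497 per library. A VSMC was a cell with at least 5 UMIs of Myh11 and more of Myh11 than of Dcn, and a fibroblast the reverse. Endothelium was called from at least 2 UMIs of Pecam1 and Cdh5 together, and leukocytes from at least 2 of Ptprc and Tyrobp. The rules gave 8950 VSMCs, 36066 fibroblasts, 3303 endothelial cells and 3357 leukocytes, and left 1642 cells in no class. The fewest cells of a class in any library were 22, 196, 31 and 13, in that order. All 10 VSMC markers, all 8 endothelial markers and all 9 leukocyte markers on the lists used were highest in their own class, as were 9 of 10 fibroblast markers, the other being highest in endothelium. The endothelial class was mixed, since 1813 of its cells also met the fibroblast rule and the fibroblast markers summed to 60.7% of their level in fibroblasts. In endothelial cells that met 1 rule only that value was 4.7%. The rule partly sets this fall, since it leaves out cells by Dcn, which is itself on the list. Values from these cells are given beside those of the class. Of the VSMCs, 3.37% met another rule. No pair of libraries shared more than 11 cell barcodes.

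Smad3 itself did not separate the genotypes. In VSMCs its level at 18 weeks was 7.44 ± 2.79 UMIs per 1000000 UMIs of the class (CPM; mean ± SD, n = 5) in Smad3+/+ and 9.32 ± 4.37 (n = 7) in libraries with the Smad3SmKO label. At 10 weeks the means were 5.04 and 6.63 CPM (n = 2 each). The fitted log2 difference was 0.04 (SE 0.38) at 18 weeks and 0.45 (SE 0.38) at 10 weeks. These libraries count the 3′ ends of transcripts, which can lie outside the deleted part of the gene, so these counts check neither the deletion nor the labels. The study itself reports reduced Smad3 RNA and protein in Smad3SmKO aortas, measured by qPCR and immunoblot. Another feature, named Sm3_intact, had 0 UMIs in every kept cell. GFP was found in 7 libraries and went against the tracer label in 4. The 2 Smad3SmKO libraries of 10 weeks, labelled as without the tracer, held GFP, and Smad3+/+ replicates 4 and 5 of 18 weeks, labelled as with it, held none.

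Pmepa1 was lower in leukocytes, and in endothelial cells that met no other rule, than in VSMCs. Averaged over all 16 libraries its level was 946 ± 330 CPM (SD) in VSMCs, 998 ± 183 in fibroblasts, 917 ± 247 in endothelium and 434 ± 115 in leukocytes. Endothelial cells that met no other rule held 239 ± 123 CPM. VSMCs and fibroblasts were neighbours in the order of levels and their difference did not pass the test (log2 difference −0.05, SE 0.11, interval of 2 SE −0.26 to 0.17), whereas VSMCs exceeded leukocytes 1.93-fold (log2 0.95, SE 0.15, adjusted p = 8.30e-06, edgeR quasi-likelihood test with the library as a block and Benjamini-Hochberg adjustment over all genes, as in every test below). VSMCs exceeded endothelium of 1 class by 2.15 on the log2 scale (SE 0.18, adjusted p = 1.16e-09, 15 libraries), against 0.17 (SE 0.12) for the whole endothelial class.

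In VSMCs, Pmepa1 was lower in every Smad3SmKO library than in any Smad3+/+ library of the same time point. Replicates 1 to 5 of Smad3+/+ at 18 weeks held 1551, 1118, 884, 1439 and 1383 CPM. The Smad3SmKO libraries ranged from 522 to 825 CPM with a median of 717 (n = 7). At 10 weeks Smad3+/+ held 1125 and 1325 CPM and Smad3SmKO 764 and 698. The groups did not overlap at either time, and the share of all genes of which this holds was not counted. The fitted difference, from the batches with both genotypes, was −0.98 on the log2 scale (SE 0.13, 1.97-fold) at 18 weeks and −0.74 (SE 0.20, 1.67-fold) at 10 weeks. This is the contrast that selected Pmepa1, so it is given as a description. Over all genes tested in VSMCs at 18 weeks, 5 of 11852 (0.0422%) were called, and nothing is read from that count for the 8. A list of 12 genes induced by tissue digestion, among them Fos, Jun and Hspa1a, summed to 3245 to 4887 CPM in the Smad3+/+ VSMCs and 1947 to 2222 CPM in the Smad3SmKO VSMCs of 10 weeks. At 18 weeks the ranges overlapped, 3771 to 10484 and 2450 to 10809 CPM. Pericyte markers (5 of 5 detected) summed to 289 to 548 CPM in Smad3+/+ and 301 to 1374 in Smad3SmKO VSMCs of 18 weeks, heart muscle markers (5 of 5) to 170 to 351 and 39.0 to 494, and Schwann markers (3 of 4) to 2.8 CPM at most. At 10 weeks the pericyte and heart ranges of the genotypes also overlapped. The fibroblast markers (10 of 10) in VSMCs separated the genotypes at 10 weeks, at 4182 to 4856 CPM in Smad3+/+ and 3086 to 3440 in Smad3SmKO, in the same direction as Pmepa1, and overlapped at 18 weeks, at 2512 to 3895 and 2604 to 5247. The part of any of these lists in the Pmepa1 difference was not tested.

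**Figure D1:**
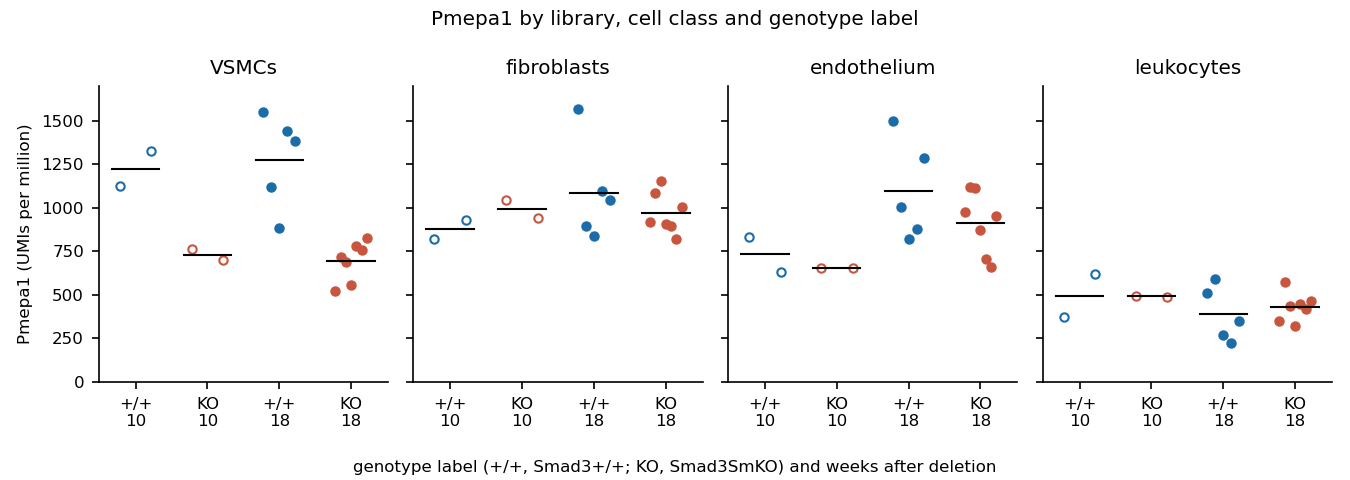
Pmepa1 in UMIs per 1000000 UMIs of the class, for each library (points) by cell class, genotype and weeks after deletion, with group means as lines. Open points are 10 weeks and filled points 18 weeks. In VSMCs the Smad3SmKO libraries, at 522 to 825 CPM, lie below every Smad3+/+ library, and in the other classes the genotypes overlap at 18 weeks.

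In the other cell types of the same aortas no Pmepa1 difference passed the test. In fibroblasts, Pmepa1 at 18 weeks was 1566, 894, 837, 1094 and 1046 CPM in Smad3+/+, and 820 to 1156 with a median of 918 in Smad3SmKO. The ranges overlapped, and the fitted difference of −0.19 (SE 0.13) did not pass the test. At 10 weeks the Smad3SmKO libraries held 1043 and 940 CPM and the Smad3+/+ libraries 821 and 933, with a fitted difference of 0.17 (SE 0.19). In leukocytes the groups overlapped at both times, with a difference of 0.09 (SE 0.25) at 18 weeks. Endothelium gave −0.31 (SE 0.17) at 18 weeks and −0.16 (SE 0.26) at 10 weeks, and its cells of 1 class gave −0.14 (SE 0.26) and 0.19 (SE 0.40, 15 libraries). Endothelial cells of 1 class held 81.0 to 469 CPM in Smad3+/+ and 75.0 to 495 in Smad3SmKO at 18 weeks.

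None of the 8 genes passed the genotype test in fibroblasts, endothelium or leukocytes at either time. At 18 weeks edgeR called 0% of 14626 genes in fibroblasts, 0% of 11683 in endothelium and 0% of 9770 in leukocytes. At an unadjusted p under 0.05 the counts were 363, 362 and 140, and DESeq2 called 3, 0 and 1. At 10 weeks edgeR again called 0% in all 3 classes and also 0% of 11852 in VSMCs, with 119, 427, 272 and 220 genes under an unadjusted p of 0.05 and 3, 7, 5 and 1 called by DESeq2.

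Set against other cells of the same aortas, the Pmepa1 difference in VSMCs was the larger in each pairing, which is again a description because the VSMC term of it chose the gene. The VSMC difference between genotypes minus that of fibroblasts was −0.81 (SE 0.12) at 18 weeks and −0.91 (SE 0.18) at 10 weeks. Minus that of endothelium it was −0.69 (SE 0.19) and −0.58 (SE 0.29), or −0.88 (SE 0.26) and −0.95 (SE 0.43) in endothelial cells of 1 class. Minus that of leukocytes it was −1.10 (SE 0.24) and −0.75 (SE 0.37). Within a library, Pmepa1 was higher in VSMCs than in fibroblasts in 6 of 7 Smad3+/+ aortas and lower in 9 of 9 Smad3SmKO aortas. The pooled difference of the 2 cell types given above thus averages 0.39 (SE 0.08) in Smad3+/+ libraries and −0.45 (SE 0.09) in Smad3SmKO libraries. That split was made after the values by genotype had been seen.

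**Figure D2:**
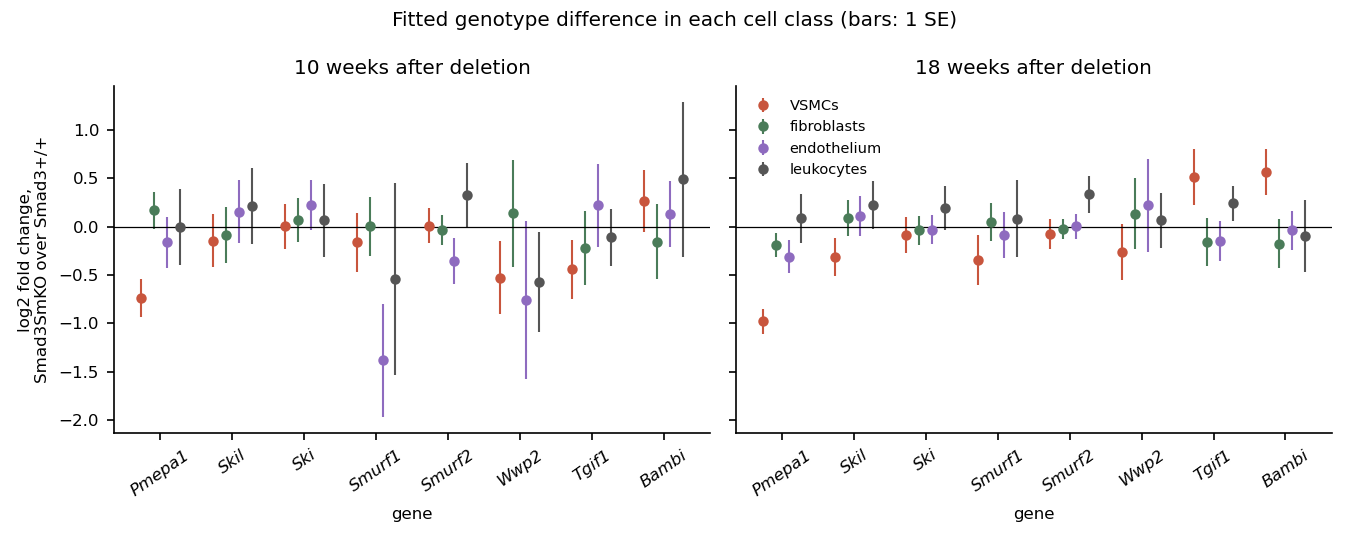
Fitted log2 difference, Smad3SmKO minus Smad3+/+, for the 8 genes in each cell class at 10 and 18 weeks, with bars of 1 SE to each side. Pmepa1 in VSMCs lies at −0.98 and −0.74, and its other classes lie between −0.31 and 0.17.

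The VSMC difference had the same sign in every batch with both genotypes. In VSMCs of 18 weeks, the log2 ratio of mean CPM, Smad3SmKO over Smad3+/+, was −1.14, −0.76, −1.01 and −0.90 in batches 1, 2, 3 and 6, and −0.75 in batch 4 at 10 weeks. In fibroblasts the same 4 batches of 18 weeks ranged from −0.48 to 0.13, with 2 below 0 and 2 above. In leukocytes they ranged from −0.89 to 0.55, also split 2 and 2. In endothelium they ranged from −0.71 to 0.25 with 3 of 4 below 0, and in its cells of 1 class from −0.87 to 0.49, again with 3 of 4 below 0.

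**Figure D3:**
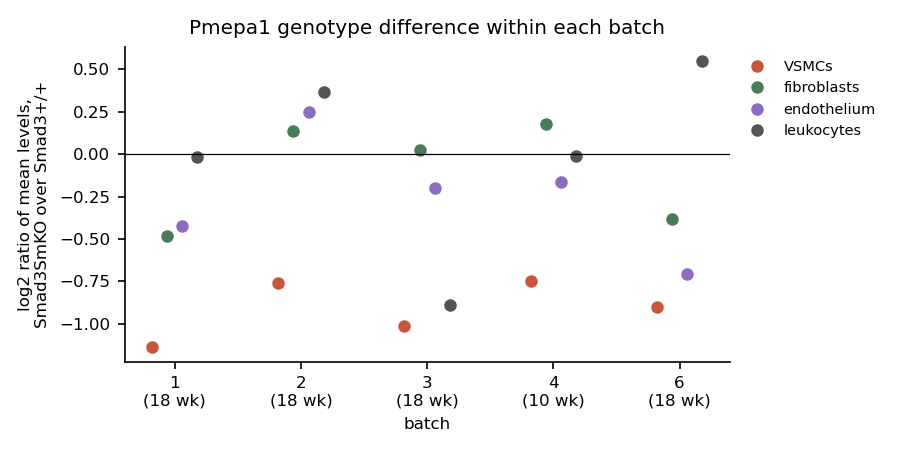
Pmepa1 difference between genotypes (log2 ratio of mean CPM, Smad3SmKO over Smad3+/+) inside each batch that holds both genotypes, by cell class. Each of the 5 VSMC points lies below −0.7, and fibroblasts, endothelium and leukocytes fall on both sides of 0.

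Pmepa1 UMIs were found in most cells. To remove the effect of depth, each cell was thinned to 2000 UMIs, which no kept cell falls under. After thinning, 84.2% ± 8.5 (SD, n = 5) of Smad3+/+ VSMCs and 68.4% ± 10.0 (n = 7) of Smad3SmKO VSMCs of 18 weeks held a Pmepa1 UMI. Before it the means were 98.6% and 94.2%. The thinned shares in fibroblasts were 76.0% ± 6.5 and 74.6% ± 3.2. Leukocytes held a Pmepa1 UMI in 34.5% and 33.2% of thinned cells. As a scale for RNA carried between cells, the fibroblast markers in leukocytes summed to 8.8% of their fibroblast level and the VSMC markers to 3.9% of their VSMC level, against 43.5% and 45.9% for Pmepa1. In leukocytes that met 1 rule only, the fibroblast markers were at 1.6% of that level and Pmepa1 at 38.2%. That marker value is partly set by the rule, since Dcn is on the list.

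Bambi, the pseudoreceptor, was lower in leukocytes than in VSMCs. Its mean level was 78.0 CPM in VSMCs, 79.1 in fibroblasts, 80.7 in endothelium (95.4 in cells of 1 class) and 23.6 in leukocytes. Of the 3 comparisons with VSMCs only that with leukocytes passed the test (VSMC over leukocyte 3.21-fold, log2 1.68, SE 0.21, adjusted p = 2.40e-07). In VSMCs of 18 weeks it was 65.4 ± 6.11 CPM in Smad3+/+ (56.6 to 71.7) and 93.8 ± 29.3 in Smad3SmKO (54.3 to 141), so the groups overlapped and the Smad3SmKO libraries were more spread. The fitted difference of 0.57 (SE 0.24) had the opposite sign to that of Pmepa1, and in VSMCs that met 1 rule only it was 0.34 (SE 0.25). In distal VSMCs, defined below, every Smad3SmKO library of 18 weeks, at 83.0 to 209 CPM, was above every Smad3+/+ library, at 58.2 to 71.0, and Bambi was higher in 4 of 4 batches by 0.30 to 1.56 on the log2 scale. Of these libraries 1 of each genotype held under 10 distal cells, and without them the ranges, 88.4 to 209 and 58.2 to 67.2 CPM, still did not overlap. In proximal VSMCs the genotypes overlapped, at 31.1 to 114 and 51.8 to 75.6 CPM. No genotype test was run by position, and the share of all genes without overlap in distal VSMCs was not counted. From these same libraries, the study already reports higher Bambi after Smad3 deletion in its VSMC subsets enriched for Ptprz1 and Tes. Against fibroblasts, where Bambi was lower in Smad3SmKO in each of 4 batches by 0.10 to 0.51 on the log2 scale, the VSMC difference was larger by 0.67 (SE 0.30). The level of Bambi in VSMCs relative to fibroblasts was −0.33 (log2, SE 0.12) in Smad3+/+ libraries alone and 0.31 (SE 0.18) in Smad3SmKO libraries alone, against 0.05 (SE 0.14) over all.

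Among the ubiquitin ligases, Wwp2 was highest in VSMCs. It averaged 126 CPM in VSMCs, 24.3 in fibroblasts, 46.3 in endothelium (23.0 in cells of 1 class) and 21.3 in leukocytes, and it was higher in VSMCs than in fibroblasts in 16 of 16 libraries. The excess over fibroblasts was 6.13-fold (log2 2.62, SE 0.15, adjusted p = 3.01e-12), over leukocytes 5.36-fold (log2 2.42, SE 0.12) and over endothelium 3.49-fold (log2 1.80, SE 0.14, adjusted p = 9.19e-10), or 2.63 on the log2 scale (SE 0.16) over its cells of 1 class. Large shares of all genes pass these tests, namely 36.4% higher and 35.9% lower in VSMCs than in fibroblasts, 32.5% and 31.4% for endothelium, and 40.6% and 36.5% for leukocytes. Smad3SmKO replicate 7 of 18 weeks held 96.9 CPM of Wwp2 in its fibroblasts, above all other libraries (14.0 to 27.9), and 169 CPM in its endothelium. The VSMC markers in its fibroblasts summed to 14535 CPM, against 724 to 4233 in the others, and their part in this value was not tested. Wwp2 did not separate the genotypes in VSMCs at either time. At 10 weeks the groups overlapped and the fitted difference was −0.53 (SE 0.38). It ran from −0.93 to 0.08 when a library was left out. Minus that of fibroblasts, the VSMC difference at 10 weeks was −0.65 (SE 0.43). Minus that of endothelium it was 0.10 (SE 0.52), and minus that of leukocytes 0.15 (SE 0.54). From these same libraries, the study reports lower Wwp2 among its early changes. Smad3+/+ of 18 weeks, replicates 1 to 5, held 125, 98.1, 77.7, 152 and 174 CPM, and Smad3SmKO 64.3 to 178 with a median of 114, a range that holds every Smad3+/+ value. The fitted difference was −0.26 (SE 0.29), and 2 of 4 batches lay on each side of 0, and the difference was −0.54 without Smad3SmKO replicate 1, 0.17 without Smad3SmKO replicate 6, −1.23 in the 60 min digestions alone and 0.20 in the 30 min ones. Of the Smad3SmKO libraries only replicate 6 informs the 60 min value.

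Smurf1 and Smurf2, which attach to Smad7 and direct the receptors to degradation, did not differ beyond the test between VSMCs and fibroblasts or endothelium. Smurf2 averaged 37.0 CPM in VSMCs, 41.9 in fibroblasts and 43.4 in endothelium, and 20.8 in leukocytes, which VSMCs exceeded 1.66-fold (log2 0.73, SE 0.11). Smurf1 was sparse, at 12.8, 12.1, 12.6 and 7.61 CPM in the same order, and again only leukocytes were lower (1.43-fold, log2 0.52, SE 0.16, adjusted p = 0.00608). In VSMCs of 18 weeks Smurf1 was 17.0 ± 4.01 CPM in Smad3+/+ and 12.9 ± 2.82 in Smad3SmKO, and lower in all 4 batches by 0.02 to 0.76 on the log2 scale. Its fitted difference of −0.34 (SE 0.26) ran from −0.13 without Smad3+/+ replicate 1 to −0.73 without Smad3SmKO replicate 6, and was 0.09 in the 60 min digestions alone. Of the Smad3SmKO libraries only replicate 6 informs the 60 min value. For Smurf2 the means were 39.7 ± 11.7 and 34.9 ± 3.06 CPM. In endothelium of 10 weeks Smurf1 was at 18.6 and 11.5 CPM in Smad3+/+ and 6.41 and 4.54 in Smad3SmKO. Smurf2 was at 51.6 and 41.6 against 39.8 and 31.8 CPM. Neither difference passed the test (−1.38, SE 0.59, and −0.35, SE 0.24), and how many of all genes order these libraries so was not counted. In endothelial cells of 1 class the genotypes overlapped for both genes. There the differences were −1.18 (SE 1.27) for Smurf1, with 0 to 5 UMIs a library, and 0.22 (SE 0.58) for Smurf2.

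**Figure D4:**
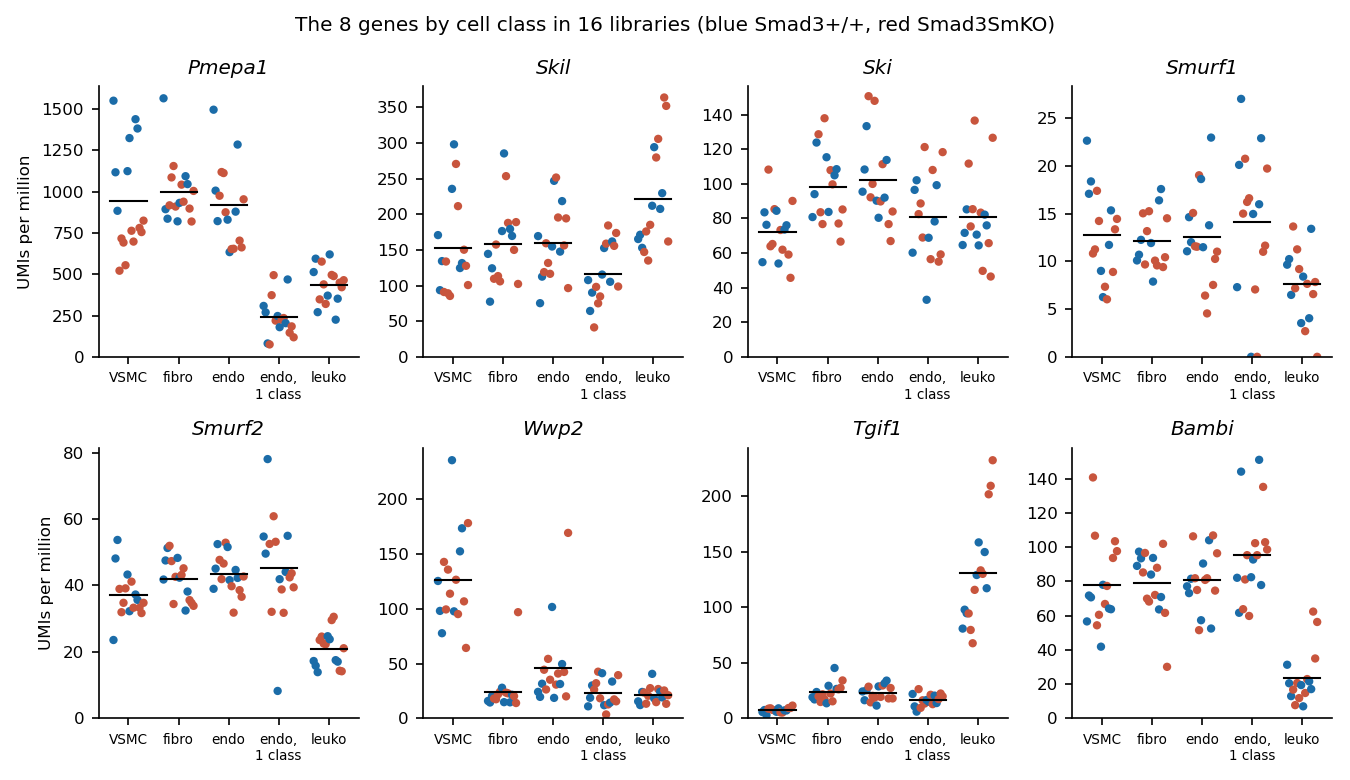
Levels of the 8 genes in CPM (linear axes from 0, a scale for each gene) in VSMCs, fibroblasts, endothelium and leukocytes, 1 point for each of 16 libraries and a line at the mean, with the endothelial cells of 1 class shown apart. The mean of Wwp2 is highest in VSMCs (126 CPM) and that of Tgif1 in leukocytes (130.6 CPM).

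The nuclear repressors were arranged the other way, with leukocytes at the top for Skil and Tgif1. Tgif1, a homeodomain repressor, averaged 130.6 CPM in leukocytes (67.5 to 232.1), 23.3 in fibroblasts and 7.37 in VSMCs, and the leukocyte range did not meet that of VSMCs (2.83 to 11.4). VSMCs were 19.7-fold below leukocytes (log2 −4.30, SE 0.12) and 2.95-fold below fibroblasts (log2 −1.56, SE 0.12, adjusted p = 2.88e-10). After thinning, 21.9% of leukocytes and 1.5% of VSMCs held a Tgif1 UMI (means over libraries), and 48.9% and 6.37% of all cells of these classes did so before it. Skil averaged 221 CPM in leukocytes, 159 in endothelium, 158 in fibroblasts and 153 in VSMCs. VSMCs were 1.63-fold below leukocytes (log2 −0.70, SE 0.13), were within 0.02 of fibroblasts (log2, SE 0.08, not called), and exceeded endothelium of 1 class by 0.49 (SE 0.12, adjusted p = 0.00102). Ski was lower in VSMCs than in the other 3 classes by small amounts, at 72.2 CPM against 98.4 in fibroblasts (log2 −0.36, SE 0.05, adjusted p = 4.44e-06), 102 in endothelium (log2 −0.33, SE 0.06) and 80.9 in leukocytes (log2 −0.27, SE 0.07). In endothelial cells of 1 class the Ski difference was −0.04 and did not pass. In all, 1 of the 8 genes was called higher and 2 lower in VSMCs than in fibroblasts (36.4% and 35.9% of all genes tested), 1 higher and 2 lower than in endothelium (32.5% and 31.4%), and 5 higher and 3 lower than in leukocytes (40.6% and 36.5%). The counts against fibroblasts and endothelium lie below these shares, and those against leukocytes at or above them.

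Between genotypes, Skil in VSMCs was lower in Smad3SmKO by less than Pmepa1 was. At 18 weeks Smad3+/+ replicates 1 to 5 held 171, 93.4, 134, 125 and 131.5 CPM and Smad3SmKO 85.4 to 150 with a median of 101. The ranges overlapped. The batch differences ran from −0.62 to −0.00 on the log2 scale, and the fitted difference of −0.31 (SE 0.20) was −0.16 without Smad3+/+ replicate 1, −0.55 without Smad3SmKO replicate 6 and 0.11 in the 60 min digestions alone. Of the Smad3SmKO libraries only replicate 6 informs the 60 min value. Set against fibroblasts, endothelium and leukocytes the VSMC difference was −0.43 (SE 0.13), −0.45 (SE 0.16) and −0.62 (SE 0.22) at 18 weeks, and −0.10 (SE 0.19), −0.32 (SE 0.24) and −0.34 (SE 0.32) at 10 weeks, given without a test for the reason above, and against endothelial cells of 1 class it was −0.37 (SE 0.22) and −0.52 (SE 0.34). Skil was higher at 10 weeks than at 18 weeks in VSMCs of both genotypes (means of 267 and 241 CPM against 130.9 and 111), but time was confounded with batch, so the 2 cannot be told apart. Ski was similar, at 72.8 ± 10.8 and 73.9 ± 21.5 CPM at 18 weeks. Tgif1 was sparse in VSMCs, with 678 UMIs over the 16 libraries, so its values rest on few molecules. At 18 weeks it was at 6.03 ± 1.92 CPM in Smad3+/+ and 8.91 ± 1.40 in Smad3SmKO, with a fitted difference of 0.52 (SE 0.29). At 10 weeks it was at 5.36 and 5.19 CPM in Smad3SmKO and 5.85 and 8.99 in Smad3+/+. The Tgif1 difference in VSMCs exceeded that in fibroblasts by 0.69 (SE 0.32) at 18 weeks. No shift of any kind was called against fibroblasts (0% of 14475 genes) or endothelium (0% of 12468) at either time, with 632 and 486 genes at an unadjusted p under 0.05 at 18 weeks and 228 and 414 at 10 weeks. Against leukocytes 0.00809% of 12360 genes were called at 18 weeks and 0% at 10 weeks (317 unadjusted). DESeq2 was not run on these shifts.

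VSMCs of the proximal and the distal part of the segment differ in embryonic origin and in gene expression, and the series asked how position shapes the response. VSMCs were split by their UMIs of Notch3 and Enpep (proximal) against Ptprz1 and Tes (distal), and 14 libraries had at least 10 cells of each. Proximal and distal here name a split by marker UMIs, since no region was dissected apart. The study describes its own VSMC subsets as reflecting location only in part. Pmepa1 was lower in proximal than in distal VSMCs of the same library in 14 of 14 libraries, at 690 ± 242 and 1073 ± 409 CPM (SD), a log2 difference of −0.58 (SE 0.05, adjusted p = 6.29e-09). Wwp2 had the same order in 14 of 14 libraries, with 76.8 ± 36.9 and 149 ± 44.4 CPM (1.83-fold, log2 −0.87, SE 0.10, adjusted p = 1.77e-07). Skil was lower proximally in 12 of 14 (log2 −0.18, SE 0.07, adjusted p = 0.0448), and Ski was higher proximally in 13 of 14 (log2 0.22, SE 0.06, adjusted p = 0.0116). Smurf2 (−0.26, SE 0.10, adjusted p = 0.0577) and Bambi (−0.16, SE 0.10) did not pass, and Smurf1 and Tgif1 had too few UMIs to be tested. So 4 of 6 tested genes were called, 1 higher and 3 lower proximally, where 12.6% of 6693 genes were called higher and 12.9% lower. The Skil call was lost in 10 of the fits that left out a library, and the Ski call was lost when a margin of 2 UMIs between the scores was required (0.18, adjusted p = 0.233).

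Within each position the Pmepa1 order of the genotypes was that of all VSMCs, and as a difference that chose the gene it is again only described. Proximal VSMCs of 18 weeks held 634 to 1034 CPM in Smad3+/+ (median 933, n = 5) and 284 to 648 in Smad3SmKO (median 538, n = 7), ranges that overlap slightly. Distal VSMCs held 1465 to 1932 and 593 to 858 CPM, which did not overlap. These include Smad3+/+ replicate 3 with 8 distal cells and Smad3SmKO replicate 4 with 5, fewer than the 10 the test required, whose values of 1822 and 802 CPM lie inside the ranges. At 10 weeks the proximal values were 871 and 957 against 469 and 546 CPM, and the distal values 1124 and 1418 against 720 and 782.8. The share of all genes whose genotype groups do not overlap was not counted for either position. The share of proximal cells among those placed was 29.3% to 80.0% in the libraries digested for 30 min and 4.34% to 22.6% in those digested for 60 min. The pooled VSMC levels thus mix the positions in proportions that moved with digestion time, and at 18 weeks the Smad3+/+ and Smad3SmKO libraries of 30 min held 54.3% to 80.0% and 29.3% to 72.2% proximal cells.

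**Figure D5:**
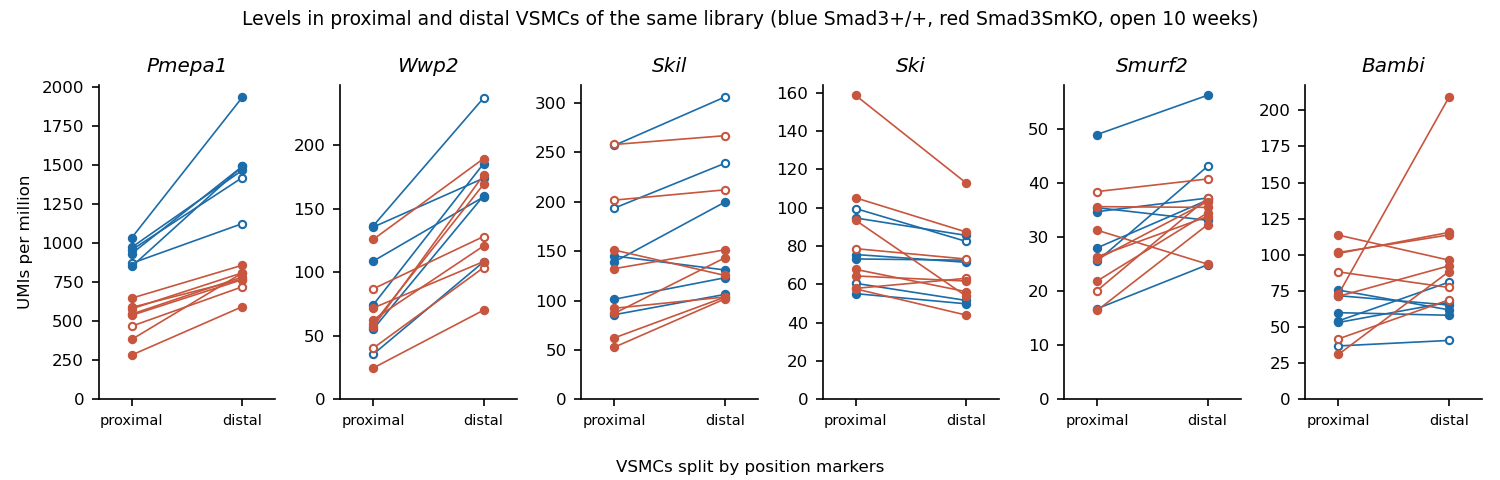
Pmepa1, Wwp2, Skil, Ski, Smurf2 and Bambi in proximal and distal VSMCs of the same library (CPM, a line joins the pair), blue for Smad3+/+ and red for Smad3SmKO, open for 10 weeks. For Pmepa1 and Wwp2 the distal value is the higher in 14 of 14 libraries.

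No gene on other lists of the pathway passed the genotype test. Of 13 other inhibitors of Smad signalling, among them Smad6 and Smad7, 12 were tested in VSMCs and none was called at either time, nor were any of 18 TGF-β target genes or 9 receptors and mediators. Of all 11852 genes tested 0% were called at 10 weeks and 0.0422% at 18 weeks, so nothing is read from these counts. The median log2 difference of the other inhibitors in VSMCs of 18 weeks was −0.14, with 10 of 12 below 0, against −0.18 for the 8 genes and −0.01 over all genes tested. Target genes had a median of −0.30 at 10 weeks (15 of 18 below 0) and 0.11 at 18 weeks (8 of 18). In level, 4 of the 13 other inhibitors were higher and 4 lower in VSMCs than in fibroblasts (36.4% and 35.9% of all genes tested). Ppm1a, a phosphatase that removes the activating phosphate of Smads, was higher by 0.47 (SE 0.04), and Tgif2, the relative of Tgif1, was lower (log2 −3.83, SE 0.36). Beside the same shares, 1 of the 9 receptors and mediators was higher and 6 were lower, among them Tgfbr2, the type II receptor (log2 −1.58, SE 0.10), and the coreceptor Eng (log2 −1.52, SE 0.11). By position, Smad7, the inhibitory Smad that recruits the Smurf ligases, was higher in proximal VSMCs (log2 0.45, SE 0.09) as was Nr4a1 (1.47, SE 0.17), and the ligase Wwp1 was lower (−0.54, SE 0.11). Those were 3 higher and 3 lower of 11 tested, where 12.6% of all genes tested were higher proximally and 12.9% lower. Of 16 targets 6 were higher proximally, among them Thbs1 (log2 3.44, SE 0.24), and 8 lower, among them Postn (−1.49, SE 0.14).

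The genes whose log2 level followed that of Pmepa1 most closely across the 16 VSMC sums, of 5368 with a mean of at least 20 CPM, were Csrp2 (Pearson r = 0.763), Plod2 (0.743), Sec22b (0.728), Nos1ap (0.720) and Fstl3 (0.710). The sums share the genotype difference, batches and position mix, so r describes these libraries. Of the other members with enough UMIs, Skil had r = 0.375, Wwp2 0.245, Smurf2 −0.178, Ski −0.255 and Bambi −0.486. Across all 64 sums of library and class, Maged1 (0.829) and P3h4 (0.820) were the most like, and Smurf2 (0.685) and Bambi (0.607) followed Pmepa1 while Skil did not (−0.261). The sign for Bambi and Smurf2 therefore differed between the 2 views, one over a single cell type and the other over classes that differ in the levels of both genes.

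By location in the mm10 (GRCm38) assembly, with gene spans from the GENCODE vM21 annotation, the 8 genes lie on 8 chromosomes. Pmepa1 (ENSMUSG00000038400) is at chr2:173224458-173276533, Skil (ENSMUSG00000027660) at chr3:31095058-31122577, Ski (ENSMUSG00000029050) at chr4:155154075-155222592 and Smurf1 (ENSMUSG00000038780) at chr5:144876495-144965847. Wwp2 (ENSMUSG00000031930) is at chr8:107436365-107558595, Smurf2 (ENSMUSG00000018363) at chr11:106820066-106920715, Tgif1 (ENSMUSG00000047407) at chr17:70844205-70853546 and Bambi (ENSMUSG00000024232) at chr18:3507923-3516404. Skil, Wwp2 and Bambi are on the plus strand and the other 5 on the minus strand. UMIs were counted per gene, so exons and transcripts of a gene were not separated.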

How the data were processed

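The 16 libraries were made with the 10x Genomics 3′ v3 chemistry. The authors deposited UMI counts per gene and barcode, not normalized, from Cell Ranger on mm10 with the GFP sequence added. Their processing notes give Cell Ranger 6 and Seurat 4, and the file headers give Cell Ranger 4.0.0. The cell totals here are close to, and not the same as, those in the study's methods. Deposited UMIs per library ranged from 12539539 to 52843031, and VSMC sums from 281192 to 18903689.

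The study's limits were applied to cells: genes above 600 and below 6000, UMIs above 2000 and below 50000, mitochondrial share below 25%. No doublet caller was run. UMIs were summed per library and class, with at least 10 cells, and genes were filtered at a minimum count of 10 (filterByExpr). edgeR 4.0.16 (R 4.3.3, TMM, quasi-likelihood) fitted genotype at each time with batch as a covariate, and level, position and the difference of genotype differences with the library as a block. A call was an adjusted p under 0.05. DESeq2 1.42.0, another scaling, filters, class rules and left-out libraries were alternatives. Some of these fits were tested on simulated data. CPM in the text are UMIs per 1000000 of the class, within-batch values are log2 ratios of mean CPM, and correlations used log2 of CPM plus 1. All 8 members, and pathway genes with the smallest adjusted p, up to 3 in each direction, were named. Members and lists were chosen with earlier results of these data known.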

Additional observations from a re-analysis of the deposited data

Results flagged for a closer look

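Groups of 4 to 10 libraries were examined, which left out those of 10 weeks, with 2 libraries each. That left 64 groups of 18 weeks, the 8 genes and 4 classes by genotype, with 5 or 7 libraries each. Chance alone marks about 1 group in 20. A single library stood far from its group in 2 of the 64. Both were Wwp2 in the same aorta, Smad3SmKO replicate 7 of 18 weeks. In fibroblasts it held 96.9 CPM where the other 6 libraries of its group held 14.0 to 24.3, and in endothelium 169 CPM where the others held 20.0 to 54.3. In that library the VSMC markers summed to 14535 CPM in fibroblasts (724 to 3835 in the other 6) and to 38809 in endothelium (up to 21501). Whether these UMIs account for the Wwp2 values was not tested. The genotype difference of Wwp2 in fibroblasts of 18 weeks was 0.13 with and without this library. The design fixed this in advance, since its batch held no Smad3+/+ library and batch was a covariate. It is therefore no check on the weight of this library.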

How the results depend on the processing

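Pmepa1 in VSMCs kept its sign in every alternative run. At 18 weeks the fits that left out a library gave −1.06 to −0.89, batches digested for 30 min alone −1.03 and for 60 min alone −0.79, no batch term −0.87, and leaving out Smad3+/+ replicates 4 and 5 −1.08. The 60 min value sets Smad3SmKO replicate 6 alone against Smad3+/+ replicates 4 and 5, since batch 5 held no Smad3+/+ library. At 10 weeks leaving out a library gave −0.96 (without Smad3+/+ replicate 1) to −0.47 (without Smad3+/+ replicate 2), so that value rests on 2 control libraries that differ. For the other members in VSMCs at 18 weeks leaving out a library gave 0.42 to 0.72 for Bambi, 0.42 to 0.60 for Tgif1, −0.55 to −0.16 for Skil, −0.73 to −0.13 for Smurf1, −0.54 to 0.17 for Wwp2, −0.22 to 0.19 for Ski and −0.24 to 0.02 for Smurf2. The 60 min digestions alone, which rest on Smad3SmKO replicate 6, turned the sign of Skil (0.11) and Smurf1 (0.09). The number of genes called in VSMCs at 18 weeks ranged from 1 (no batch term) to 134 (no filter on low counts), with 8 by DESeq2.

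In Smad3+/+ libraries alone 5 members were called between VSMCs and fibroblasts, where all libraries gave 3. This alternative was added after the data were seen. There Pmepa1 turned from −0.05 to 0.39 and Bambi from 0.05 to −0.33. Under a stricter rule for cells 5 members were called between VSMCs and endothelium instead of 3, with Pmepa1 at 0.54 and Smurf2 at −0.20. The cause was not tested. DESeq2 was not run for levels and positions, and libraries were not left out in turn for the shifts against endothelium and leukocytes. The groups share no animals, and the fewest cells, 13 leukocytes in a library, limit Smurf1, Bambi and Wwp2 there.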
